A study of Mus musculus with 6 samples.

Results

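The 34 genes described here mark leukocytes, macrophages and the presentation of antigen on MHC class II. They were taken by symbol from the count files, were 34 of 27179 genes listed, and all 34 were among the 16483 genes with enough counts to be tested. RNA was sequenced from quadriceps muscle of 3 control mice (libraries B, C and D) and 3 miDrp1KO mice (libraries A, E and F) 3 weeks after deletion of *Dnm1l*, the gene for the mitochondrial fission protein Drp1. The miDrp1KO mice carried floxed *Dnm1l* alleles and HSA-MerCreMer, a Cre recombinase that needs tamoxifen to act and is driven by the human *ACTA1* promoter, which is active in skeletal muscle fibres, so the genotype targets fibres and not macrophages. Controls were labelled Control f/f, and the methods of the study describe controls with 1 or both alleles floxed and name no Cre for them. Mice of both groups had the C57BL/6J background, received tamoxifen at 3 months of age and were fed normal chow. The question was whether these genes differed between the groups and which libraries carried any difference.

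Macrophages reside between muscle fibres in healthy muscle, and monocytes from blood can add to them after injury. Macrophages clear dying cells and debris through scavenger, complement and Fc receptors, and make C1q, the recognition component of the classical complement pathway. Like dendritic cells and B cells they load peptides onto MHC class II molecules, whose chains are held by the invariant chain until loading, for display to CD4+ T cells. In bulk muscle, more cells of a type and more RNA per cell cannot be told apart.

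Libraries held 13989588 (control C) to 62042255 (control D) counts, and the counts on a member in 1 library ran from 4 to 3410. Levels are given as CPM, counts scaled to a common library total with the TMM factors of edgeR, in the order B, C, D for controls and A, E, F for miDrp1KO. The factor was 1.42 in miDrp1KO E and 0.840 to 1.04 in the other libraries. Ribosomal RNA genes took 1.47% of the counts in miDrp1KO E, 3.36 to 15.6% in the controls, and 23.0 and 24.4% in miDrp1KO A and F. *Dnm1l* was at 156, 114 and 140 CPM in the controls and at 70.6, 81.3 and 66.2 CPM in miDrp1KO, with no overlap (log2 fold change -0.91, adjusted p = 0.362 with edgeR's quasi-likelihood test, 0.00334 with DESeq2). Myofibre markers such as *Acta1* and *Ckm* summed to 117131 to 304919 CPM, as the defining markers of the labelled tissue.

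No member passed the test. With edgeR's quasi-likelihood test and Benjamini-Hochberg adjustment over all genes, adjusted p ran from 0.379 to 0.992 over the 34 members, and 0.0121% of all genes tested were called. The count of members called was also 0 with limma voom and with DESeq2, which gave 12 members an adjusted p. At an unadjusted p under 0.05, 7 of 34 members were higher in miDrp1KO, against 4.68% of all genes tested, and 0 were lower, against 6.22%. The 7 were *C1qa*, *C1qb*, *C1qc*, *Tyrobp*, *Ptprc*, *Lyve1* and *Lyz2*. All 3 miDrp1KO libraries lay above all 3 controls in 5 members (*Ptprc*, *Itgb2*, *Cd68*, *C1qa* and *Tyrobp*), against 7.67% of all genes tested. They lay below all controls in 0 members, against 10.3%. The log2 fold change, taken throughout as miDrp1KO over control, was positive in 26 of 34 members (76.5%) and in 52.0% of all genes, with medians of 0.38 and 0.02. The members with a positive value numbered 32 with upper quartile scaling and 34 with library totals in place of TMM. These scalings also moved the median of all genes, from 0.02 to 0.11 and 0.26. Members higher at an unadjusted p under 0.05 in these edgeR fits numbered 10 and 11, against 7.23 and 8.32% of all genes.

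**Figure D1:**
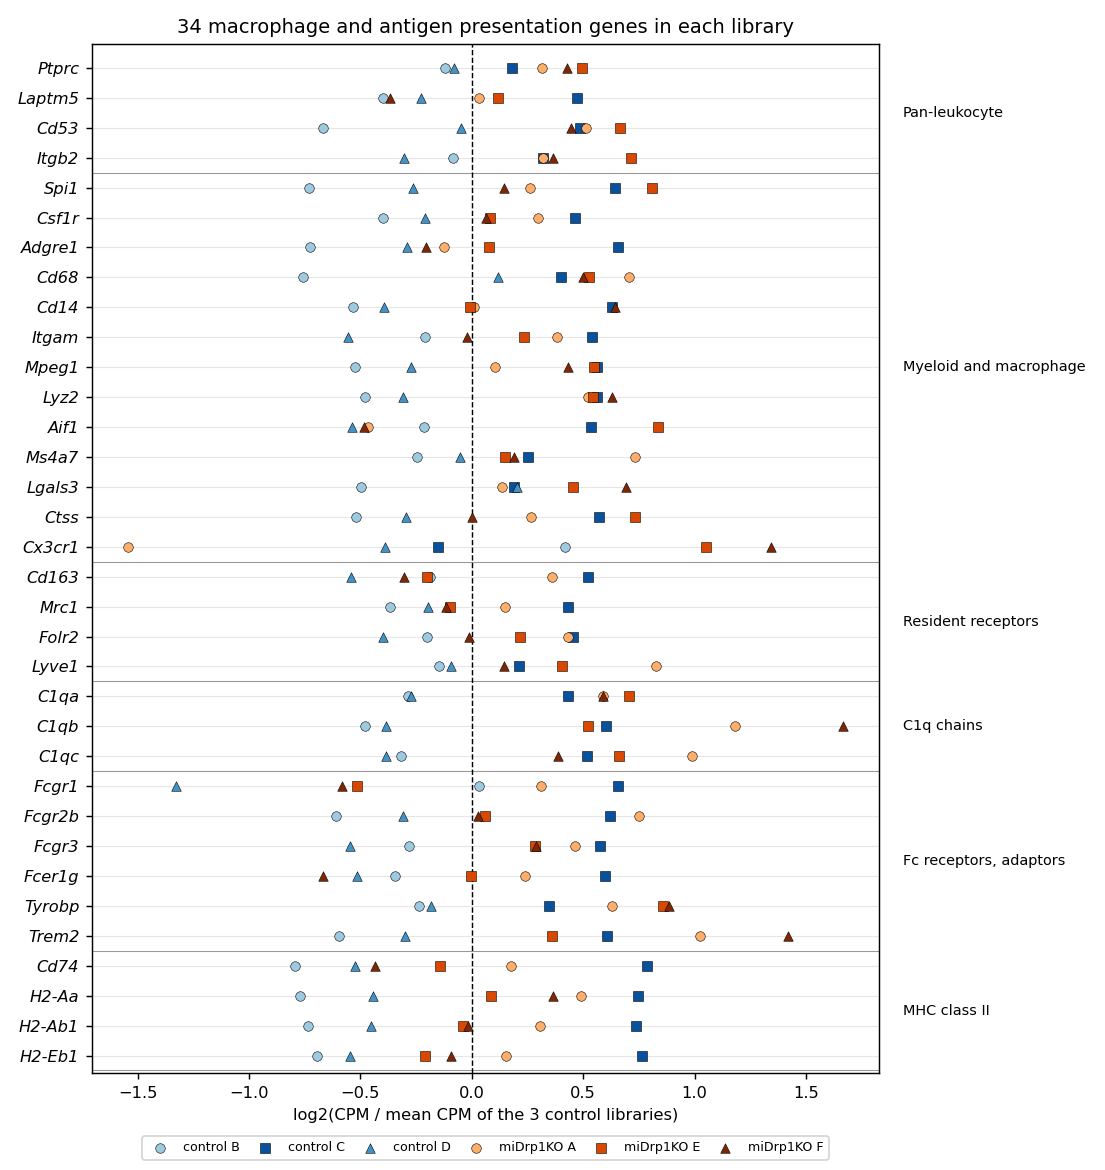
Level of each of the 34 genes in each library as the log2 ratio of its CPM to the mean of the 3 controls, with genes grouped by role and 1 point per library. Control C was the highest control in 32 of 34 genes, and controls B and D lay mostly to the left of the miDrp1KO libraries.

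Of the 4 pan-leukocyte genes, 2 (*Ptprc* and *Itgb2*) had all miDrp1KO libraries above all controls, against 7.67% of all genes tested. None of the 4 passed the test. *Ptprc* encodes CD45, the phosphatase on the surface of all nucleated blood cells. Its level was 7.77, 9.55 and 7.98 CPM in the controls and 10.5, 11.9 and 11.3 CPM in miDrp1KO, so the groups did not overlap (log2 fold change 0.42, SE 0.17, edgeR adjusted p = 0.423). *Itgb2*, the integrin β2 chain shared by leukocyte adhesion receptors, was at 4.07, 5.39 and 3.50 CPM in the controls and 5.40, 7.08 and 5.57 CPM in miDrp1KO, where miDrp1KO A was barely above control C (log2 fold change 0.50, SE 0.23, edgeR adjusted p = 0.465). The exact two-sided permutation test gave p = 0.1 for both genes, the smallest value that 3 against 3 libraries allow. *Cd53*, a leukocyte tetraspanin, was lower in controls B and D, at 1.80 and 2.77 CPM, than in control C at 4.01 CPM and in the miDrp1KO libraries at 4.08, 4.53 and 3.89 CPM. *Laptm5*, a lysosomal membrane protein of haematopoietic cells, was highest in control C at 9.62 CPM, with the other libraries between 5.26 and 7.53 CPM and a log2 fold change of -0.04 that turned positive with other scalings.

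In the 13 myeloid and macrophage genes the summed level was 91.2, 182 and 105 CPM in the controls and 165, 170 and 165 CPM in miDrp1KO. The 3 miDrp1KO libraries lay close together, below control C and above controls B and D. *Lyz2*, lysozyme M of macrophages and neutrophils, made up the largest share. Its level was 41.1, 84.6 and 46.2 CPM in the controls and 82.4, 83.6 and 88.7 CPM in miDrp1KO (log2 fold change 0.57, SE 0.25, edgeR adjusted p = 0.451). Control C thus lay among the miDrp1KO libraries, and controls B and D were far below them. *Lyz1*, the near-identical neighbour of *Lyz2* that was looked up after the values were seen, was at 4.50, 7.65 and 4.70 CPM in the controls and 9.96, 11.3 and 12.1 CPM in miDrp1KO, without overlap. Reads shared between the 2 genes could have been assigned to either.

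*Cd68*, a lysosomal glycoprotein of macrophages, was the only 1 of the 13 without overlap, at 2.41, 5.39 and 4.43 CPM in the controls and 6.66, 5.88 and 5.76 CPM in miDrp1KO (log2 fold change 0.59, SE 0.28, edgeR adjusted p = 0.467). That share of the 13 (7.69%) was near the 7.67% of all genes tested with all miDrp1KO libraries above all controls. With 1 library left out the log2 fold change of *Cd68* ran from 0.34 (without control B) to 0.78 (without control C). *Csf1r*, the receptor for the growth factor on which most macrophages depend, was at 19.4, 35.2 and 22.1 CPM in the controls and 31.4, 27.0 and 26.7 CPM in miDrp1KO, with a log2 fold change of 0.16 (SE 0.22). This value was 0.012 without control B and 0.43 without control C. *Adgre1*, which encodes F4/80, was at 4.36, 11.4 and 5.88 CPM in the controls and 6.61, 7.60 and 6.24 CPM in miDrp1KO. For both genes control C was the highest library and control B the lowest, and all miDrp1KO libraries lay between control C and the other controls. *Ctss*, the protease cathepsin S that trims the invariant chain, was at 7.72, 16.5 and 9.03 CPM in the controls and 13.3, 18.4 and 11.1 CPM in miDrp1KO. *Mpeg1*, a pore-forming protein of macrophages, was at 3.74, 7.94 and 4.45 CPM in the controls and 5.78, 7.87 and 7.25 CPM in miDrp1KO. *Itgam*, the CD11b chain of complement receptor 3, was at 5.78, 9.69 and 4.55 CPM in the controls and 8.70, 7.84 and 6.57 CPM in miDrp1KO. The same order, with control C inside or above the miDrp1KO range and controls B and D below it, held for these 3 genes.

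*Spi1*, which encodes the myeloid transcription factor PU.1, was at 0.758, 1.97 and 1.05 CPM in the controls and 1.51, 2.21 and 1.39 CPM in miDrp1KO. *Cd14*, a co-receptor for bacterial lipopolysaccharide, was at 1.47, 3.28 and 1.62 CPM and at 2.14, 2.11 and 3.31 CPM. *Ms4a7*, a membrane protein of macrophages, was at 1.14, 1.60 and 1.30 CPM and at 2.24, 1.50 and 1.54 CPM. In each of the 3, control C was the only control that overlapped the miDrp1KO libraries. *Lgals3*, the lectin galectin-3, differed from them, since control D at 3.31 CPM and control C at 3.28 CPM were close and only control B was low at 2.04 CPM, with 3.16, 3.95 and 4.66 CPM in miDrp1KO. *Aif1* (IBA1), an actin-binding protein of macrophages, was low, at 0.416 to 0.875 CPM in the controls and 0.432 to 1.08 CPM in miDrp1KO. *Cx3cr1*, the fractalkine receptor, was at 0.433 to 0.758 CPM in the controls and 0.194, 1.18 and 1.44 CPM in miDrp1KO, where miDrp1KO A held only 4 counts.

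The resident receptors gave little difference except for *Lyve1*. *Mrc1*, the mannose receptor CD206, was at 43.7, 75.9 and 49.2 CPM in the controls and 62.4, 52.6 and 52.0 CPM in miDrp1KO (log2 fold change -0.01, SE 0.21). *Cd163*, the haemoglobin scavenger receptor, was at 37.4, 60.9 and 29.2 CPM in the controls and 54.6, 36.9 and 34.4 CPM in miDrp1KO (log2 fold change -0.01, SE 0.29). The sign of both values changed with the scaling. For these 2 genes control C was the highest library, miDrp1KO A came next, and miDrp1KO E and F lay nearer to control B or D. *Folr2*, a folate receptor of resident macrophages, was at 7.67, 12.1 and 6.70 CPM in the controls and 11.9, 10.2 and 8.73 CPM in miDrp1KO. *Lyve1*, a hyaluronan receptor that lymphatic endothelium also carries, was at 11.0, 14.1 and 11.4 CPM in the controls and 21.5, 16.1 and 13.4 CPM in miDrp1KO, and only miDrp1KO F was below control C (log2 fold change 0.49, SE 0.20, edgeR adjusted p = 0.424).

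Of the role groups, the C1q chains differed most between miDrp1KO and controls. *C1qa*, *C1qb* and *C1qc* encode the A, B and C chains that assemble into C1q, and lie side by side at chr4:136880126-136898844 (GRCm38). *C1qa* was at 14.3, 23.5 and 14.4 CPM in the controls and 26.2, 28.5 and 26.2 CPM in miDrp1KO. All miDrp1KO libraries lay above all controls, control C included (log2 fold change 0.64, SE 0.20, unadjusted p = 0.00948, edgeR adjusted p = 0.382). *C1qc* was at 7.29, 13.045 and 6.96 CPM in the controls and 18.1, 14.4 and 11.9 CPM in miDrp1KO, with miDrp1KO F below control C (log2 fold change 0.72, SE 0.26, edgeR adjusted p = 0.393). *C1qb* was at 1.14, 2.405 and 1.22 CPM in the controls and 3.60, 2.28 and 5.04 CPM in miDrp1KO, with miDrp1KO E just below control C (log2 fold change 1.24, SE 0.38, edgeR adjusted p = 0.379). Per kilobase of exon, the mean levels in the controls were 16.8 CPM for *C1qa*, 4.71 CPM for *C1qc* and 1.46 CPM for *C1qb*, and in miDrp1KO 25.9, 7.66 and 3.34 CPM in the same order. The sum of the 3 chains was 22.7, 39.0 and 22.6 CPM in the controls and 47.9, 45.1 and 43.1 CPM in miDrp1KO, a ratio of the group means of 1.61 and the only role group whose sums did not overlap.

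The promoter windows of the C1q and class II genes are shown because the log2 fold change was positive for all 3 C1q chains, none of which passed the test, while the class II genes were highest in control C. They cover 250 bases before to 50 after the start of the gene (RefSeq, GRCm38.p6). The table of windows matched 24 of 34 members. Capitals mark, with no overlap between them, the letters searched on both strands. These were GAGGAAG (a form of the PU.1 site) in the C1q windows and ATTGG (the CCAAT or Y box core) in the class II windows. Shorter and other forms of the PU.1 site were not searched. The windows are *C1qb* at chr4:136886151-136886450, minus strand, *C1qc* at chr4:136892865-136893164, minus strand, *H2-Aa* at chr17:34287774-34288073, minus strand, and *H2-Eb1* at chr17:34305617-34305916, plus strand.
C1qb: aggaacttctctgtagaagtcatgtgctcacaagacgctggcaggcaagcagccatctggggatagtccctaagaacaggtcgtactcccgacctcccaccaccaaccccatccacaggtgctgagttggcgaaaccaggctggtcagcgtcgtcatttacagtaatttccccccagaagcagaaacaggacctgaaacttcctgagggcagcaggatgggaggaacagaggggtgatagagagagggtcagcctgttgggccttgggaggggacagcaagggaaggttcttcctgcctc
C1qc: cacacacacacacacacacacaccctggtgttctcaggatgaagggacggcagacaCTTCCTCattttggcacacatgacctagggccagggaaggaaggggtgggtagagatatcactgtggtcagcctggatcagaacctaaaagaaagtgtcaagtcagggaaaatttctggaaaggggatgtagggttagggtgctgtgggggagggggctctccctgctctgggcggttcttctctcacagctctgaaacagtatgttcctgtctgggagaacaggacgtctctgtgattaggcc
H2-Aa: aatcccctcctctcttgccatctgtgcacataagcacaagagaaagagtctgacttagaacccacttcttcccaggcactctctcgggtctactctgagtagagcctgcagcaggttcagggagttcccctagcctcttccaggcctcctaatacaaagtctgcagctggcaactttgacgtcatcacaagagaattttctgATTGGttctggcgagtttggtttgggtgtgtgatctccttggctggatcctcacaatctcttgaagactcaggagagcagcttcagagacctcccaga
H2-Eb1: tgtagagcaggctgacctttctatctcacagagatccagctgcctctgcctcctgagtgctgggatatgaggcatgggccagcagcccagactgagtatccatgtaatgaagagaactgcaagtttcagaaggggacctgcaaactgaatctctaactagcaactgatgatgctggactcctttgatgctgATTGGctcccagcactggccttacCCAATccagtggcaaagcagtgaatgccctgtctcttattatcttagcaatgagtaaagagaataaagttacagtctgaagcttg
*C1qc* held 1 GAGGAAG match on the opposite strand at position -194 from the start and *C1qb* held 0, against 13.6% of all 32851 windows and 10 of the 28 windows of members. *H2-Aa* held 1 ATTGG match at -48 and *H2-Eb1* held 2, at -59 and on the opposite strand at -35, against 37.4% of all windows and 12 of the 28. The exact letters CCTNGNNAC, a strict form of the X box core of class II promoters, were in neither class II window. They were in 15.8% of all windows and in 5 of the 28. Both class II windows hold a stretch that differs from them only in the first letter, gctggcaac in *H2-Aa* and actagcaac in *H2-Eb1*. The search therefore does not show that these promoters lack an X box. These matches are letters in a window and were not measured as sites.

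**Figure D2:**
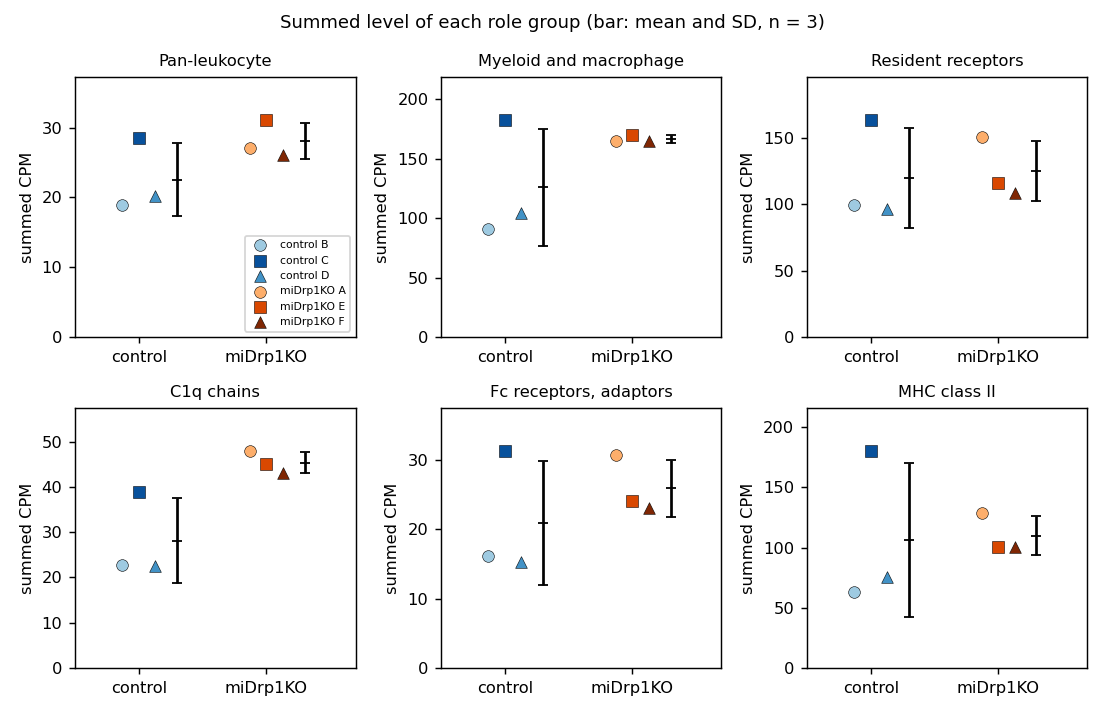
Summed CPM of the genes of each role group in each library (vertical axes start at 0), with points for libraries and a bar for the mean and SD of 3 libraries. The C1q chains sum to 43.1 to 47.9 CPM in miDrp1KO and 22.6 to 39.0 CPM in controls, and in the other groups control C overlaps the miDrp1KO libraries or lies above them.

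Among the Fc receptors and the adaptors with an activation motif, *Tyrobp* stood out. It encodes DAP12, the signalling adaptor of TREM2 and other myeloid receptors, and was at 1.89, 2.84 and 1.97 CPM in the controls and 3.45, 4.04 and 4.13 CPM in miDrp1KO, without overlap (log2 fold change 0.82, SE 0.26, unadjusted p = 0.00923, edgeR adjusted p = 0.381). *Trem2*, a lipid receptor that signals through DAP12, was low, at 0.189, 0.437 and 0.233 CPM in the controls and 0.583, 0.368 and 0.768 CPM in miDrp1KO (log2 fold change 1.05, SE 0.60, edgeR adjusted p = 0.555). *Fcer1g*, the Fc receptor γ chain and the other adaptor in the list, was at 2.89, 5.54 and 2.57 CPM in the controls and 4.33, 3.65 and 2.30 CPM in miDrp1KO (log2 fold change -0.06). The lowest library for *Fcer1g* was miDrp1KO F, which was the highest for *Tyrobp*. *Fcgr1*, the high-affinity IgG receptor, was at 1.33, 2.04 and 0.516 CPM in the controls and 1.60, 0.907 and 0.864 CPM in miDrp1KO. *Fcgr2b*, the inhibitory IgG receptor, was at 4.59, 10.8 and 5.66 CPM and at 11.8, 7.30 and 7.15 CPM. *Fcgr3*, an activating IgG receptor, was at 5.30, 9.62 and 4.41 CPM and at 8.89, 7.84 and 7.87 CPM. Control C lay within or above the miDrp1KO libraries in all 3, and the similar sequences of *Fcgr2b* and *Fcgr3* leave their shared reads uncertain.

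The MHC class II genes did not differ between the groups beyond the spread of the controls. *Cd74*, the invariant chain, was at 22.0, 65.8 and 26.5 CPM in the controls and 43.1, 34.5 and 28.2 CPM in miDrp1KO (log2 fold change -0.10, SE 0.45, edgeR adjusted p = 0.957). *H2-Ab1*, the I-A β chain, was at 21.4, 59.3 and 26.0 CPM in the controls and 43.9, 34.6 and 35.1 CPM in miDrp1KO (log2 fold change 0.10, SE 0.38, edgeR adjusted p = 0.952). *H2-Aa*, the I-A α chain, was at 10.6, 30.2 and 13.2 CPM and at 25.3, 19.1 and 23.2 CPM (log2 fold change 0.34, SE 0.39, edgeR adjusted p = 0.794). In all of them control C was the highest of the 6 libraries and controls B and D were the lowest. *H2-Eb1*, the I-E β chain, had the same order, at 8.95, 24.6 and 9.89 CPM and at 16.1, 12.5 and 13.6 CPM (log2 fold change -0.03, SE 0.39, edgeR adjusted p = 0.990), and its sign and that of *Cd74* changed with library totals in place of TMM. The 4 genes summed to 62.9, 180 and 75.6 CPM in the controls and 128, 101 and 100 CPM in miDrp1KO, so control C alone held 2.86 times the level of control B and 2.38 times that of control D.

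The libraries that set these results were the controls more than the miDrp1KO libraries. Control C was the highest of the 6 libraries in 15 of 34 members, against 18.1% of all genes tested, and the highest control in 32. Control B was the lowest of the 6 libraries in 24 members, against 15.1% of all genes, and control D in 8. Relative to the mean of the controls the median member was at 0.759 in control B, 1.45 in control C and 0.808 in control D, and at 1.25, 1.25 and 1.12 in miDrp1KO A, E and F. All 3 miDrp1KO libraries lay above control B in 29 members, against 24.9% of all genes, and above control D in 30, against 26.0%. They lay above control C in 5 members (14.7%), a smaller share than the 27.1% of all genes, and below it in 15, against 28.5%. Taken singly, miDrp1KO A, E and F exceeded all controls in 12, 13 and 11 members, against 24.9, 29.2 and 31.1% of all genes, and for miDrp1KO F this share was near that of all genes.

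Leaving out control C gave 21 of 34 members at an unadjusted p under 0.05 in the edgeR fit, all higher in miDrp1KO, against 5.02% of all genes tested. All miDrp1KO libraries then lay above controls B and D in 27 of 34 members, against 14.4% of all genes. The median log2 fold change was 0.66, all 34 members were positive, and still 0 were called, with adjusted p from 0.323 upwards. Without control C the log2 fold change was 0.94 for *Lyz2* (SE 0.20), 0.89 for *C1qa* (SE 0.19), 0.89 for *H2-Aa* (SE 0.21) and 0.52 for *Cd74* (SE 0.22). Leaving out control B or control D gave 3 of 34 members each at an unadjusted p under 0.05, with medians of 0.21 and 0.24, against 5.30 and 3.21% of all genes higher in miDrp1KO. In each of these fits 5 of 34 members had all miDrp1KO libraries above the remaining controls. That was close to the share of all genes, 15.3% without control B and 12.3% without control D. Without miDrp1KO E or F all remaining miDrp1KO libraries lay above all controls in 8 members each, against 11.6 and 13.2% of all genes. Without miDrp1KO A this held for 7 of 34 members, near the 20.2% of all genes. With 3 controls, the values do not tell whether control C was high or controls B and D were low.

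**Figure D3:**
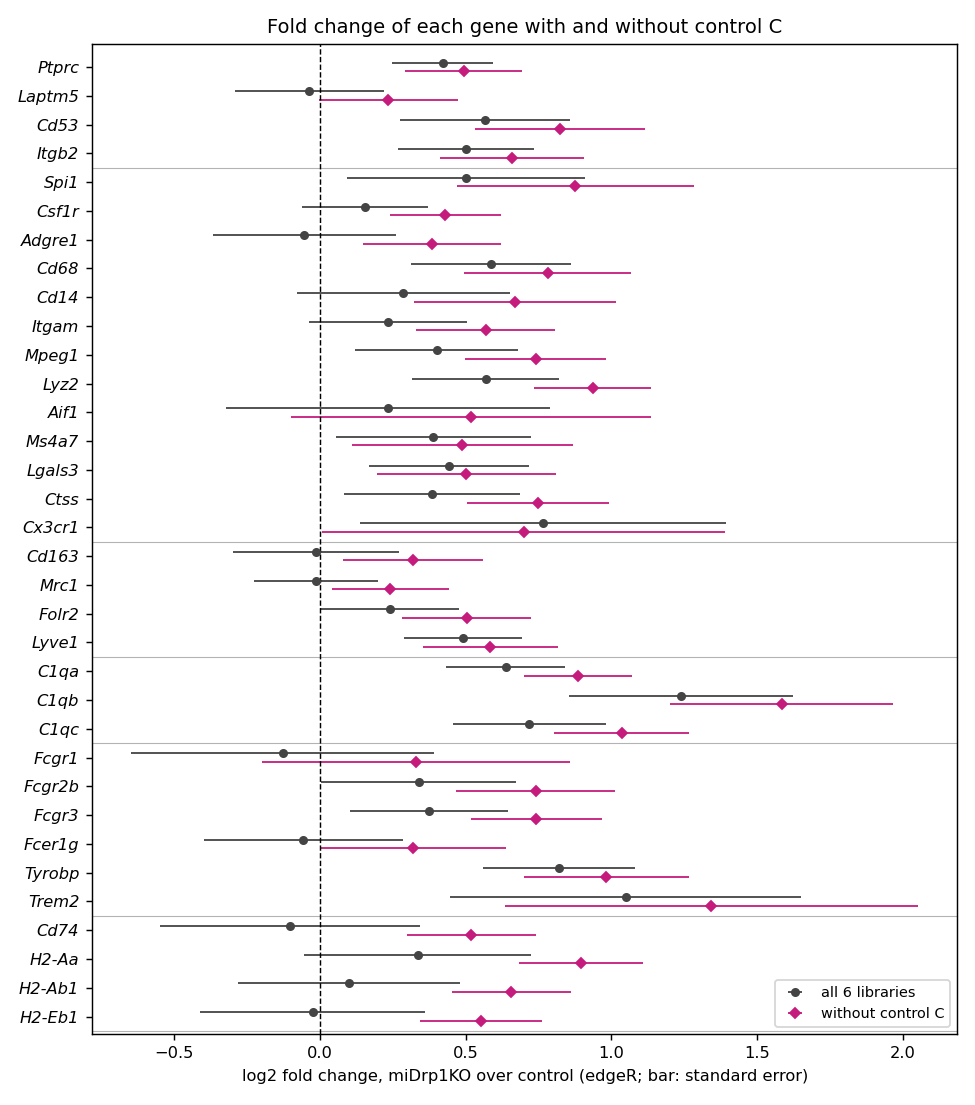
Log2 fold change of each gene, miDrp1KO over control, with its standard error, from the fit of all 6 libraries (circles) and from the fit without control C (diamonds). Without control C all 34 values are above 0, and the class II genes move by the most, *Cd74* from -0.10 to 0.52.

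Within each library, the role groups did not keep the same proportions, and such ratios do not depend on the scaling of libraries. They were chosen after the values were seen and were given no test. The C1q sum divided by the sum of the 4 resident receptors was 0.228, 0.239 and 0.235 in controls B, C and D and 0.318, 0.389 and 0.397 in miDrp1KO A, E and F, so control C was close to the other controls in this ratio. The C1q sum divided by *Csf1r* was 1.17, 1.11 and 1.02 in the controls and 1.52, 1.67 and 1.62 in miDrp1KO. Such a separation depended on the macrophage gene chosen as divisor. *C1qa* over *Lyz2*, the most abundant of the myeloid and macrophage genes, overlapped between the groups. It was 0.348, 0.278 and 0.312 in the controls and 0.318, 0.340 and 0.295 in miDrp1KO. The C1q sum divided by the class II sum was 0.361, 0.217 and 0.299 in the controls and 0.373, 0.448 and 0.431 in miDrp1KO, where control B and miDrp1KO A nearly met. The class II sum divided by that of the resident receptors overlapped, at 0.631, 1.10 and 0.783 in the controls and 0.854 to 0.922 in miDrp1KO. Of the 93 pairs of 1 C1q chain with 1 other member, the ratio was higher in all miDrp1KO libraries than in all controls in 34 (36.6%) and lower in 0. The share was 38.8% for the C1q chains over all other genes tested, so the other members did not stand apart from the rest of the genes in this count. The pairs share 3 numerators, chosen as the role group with the highest ratio between the groups. Of the 465 pairs of other members, 60 (12.9%) had no overlap between the groups, in 1 direction or the other. The 34 pairs included 8 of 12 with the resident receptors (*C1qa* over *Mrc1* was 0.328, 0.310 and 0.294 in the controls and 0.420, 0.541 and 0.504 in miDrp1KO), 7 of 12 with class II, 6 of 18 with the Fc receptors and adaptors, 10 of 39 with the myeloid and macrophage genes and 3 of 12 with the pan-leukocyte genes.

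**Figure D4:**
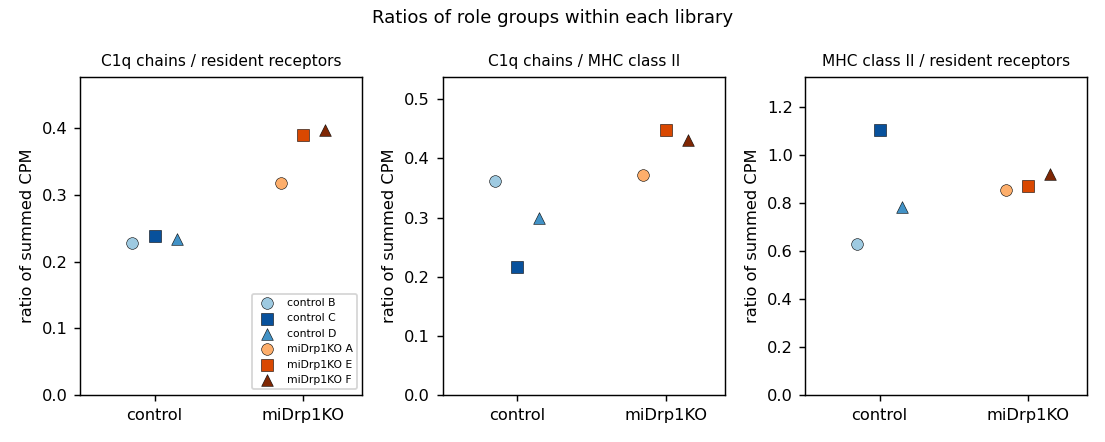
Ratio of the summed CPM of role groups in each library (vertical axes start at 0), with 1 point per library. C1q over resident receptors was 0.228 to 0.239 in controls and 0.318 to 0.397 in miDrp1KO, whereas class II over resident receptors overlapped between the groups.

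Other genes of the same pathways were read from 5 lists of 100 genes, and none passed the adjusted threshold with edgeR. Over all genes tested for comparison, 4.68% were higher and 6.22% lower at an unadjusted p under 0.05, and 52.0% were positive. Of the other class II presentation genes, 2 of 15 tested were higher at an unadjusted p under 0.05 and 1 was lower. *H2-DMb1*, part of the peptide editor H2-DM, was at 0.994, 2.77 and 1.63 CPM in the controls and 3.50, 2.65 and 3.60 CPM in miDrp1KO (edgeR adjusted p = 0.417). *Cd83*, which stabilises class II at the surface of dendritic cells, was at 0.710, 1.02 and 0.666 CPM and at 1.56, 1.27 and 2.11 CPM without overlap (edgeR adjusted p = 0.392). *Rfxap*, a subunit of the factor that binds the X box, was lower, at 8.24, 10.6 and 10.8 CPM and 5.98, 6.40 and 7.63 CPM (edgeR adjusted p = 0.387). Of the 10 class I genes, 0 had an unadjusted p under 0.05 with edgeR, and their median log2 fold change was -0.05. All miDrp1KO libraries lay above all controls in 2 of the 15 class II presentation genes and in 0 of the 10 class I genes. They lay below all controls in 1 of the 15 and 2 of the 10. Over all genes tested the shares were 7.67% above and 10.3% below.

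Among growth and transcription factors of macrophages, 2 of 12 tested were higher at an unadjusted p under 0.05, among them *Runx1* (log2 fold change 0.75), and 0 were lower. Of 35 phagocyte receptors and effectors 4 (11.4%) were higher and 0 lower at the same threshold. *Axl*, a receptor for the uptake of dying cells that fibroblasts also express, was at 46.8, 57.1 and 51.6 CPM in the controls and 78.5, 93.4 and 75.9 CPM in miDrp1KO (log2 fold change 0.67, unadjusted p = 0.00182, edgeR adjusted p = 0.362). Control C lay with the other controls for *Axl*. *Cd209g* and *Cyba* were also among the 4, with log2 fold changes of 0.64 and 0.52. Of 24 leukocyte signalling genes, 2 (8.33%) were higher at the same threshold, *Syk*, the kinase downstream of DAP12 and the Fc receptor γ chain (log2 fold change 0.63, edgeR adjusted p = 0.387), and *Cd52* (1.08, edgeR adjusted p = 0.443), and 21 (87.5%) were positive.

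Marker lists of other cell types were read in the same libraries. The 7 monocyte markers summed to 178, 250 and 192 CPM in the controls and 250, 378 and 255 CPM in miDrp1KO, most of it *Fn1*, which fibroblasts also make. *Ccr2*, the receptor that draws monocytes from the blood, was at 5.59, 10.5 and 6.05 CPM in the controls and 10.8, 13.4 and 10.9 CPM in miDrp1KO without overlap (log2 fold change 0.69, unadjusted p = 0.0170 with edgeR), whereas *Ly6c2* was at 2.99 to 4.02 and 2.92 to 4.13 CPM. The neutrophil list summed to 6.81 to 10.8 CPM in the controls and 7.13 to 10.3 CPM in miDrp1KO, with 4 of its 10 genes, *Ly6g* among them, at 0 in at least 1 library. The T and NK cell list summed to 2.92 to 4.59 and 4.37 to 6.05 CPM, with 4 of 12 genes at 0 in at least 1 library, and the dendritic cell list to 12.5 to 14.8 and 13.6 to 16.5 CPM with 1 of 8. The B cell list summed to 168 to 250.9 CPM in the controls and 98.2, 194 and 256 CPM in miDrp1KO, nearly all of it *Ighm*, which plasma cells express strongly and which was lowest in miDrp1KO A at 95.4 CPM, and the other B cell markers summed to 1.73 to 5.09 CPM over the 6 libraries. None of the neutrophil, T and NK, dendritic or B cell genes tested had an unadjusted p under 0.05 with edgeR, and their part in the member values was not tested.

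Control C also had the highest sum of adipocyte and of mast cell markers. The 6 adipocyte markers summed to 186, 395 and 285 CPM in the controls and 151, 70.4 and 181 CPM in miDrp1KO, and 3 of 6 were lower at an unadjusted p under 0.05. The 7 mast cell markers summed to 24.2, 43.5 and 29.5 CPM in the controls and 23.7, 25.6 and 24.9 CPM in miDrp1KO. Control B, the lowest library in 24 members, had the highest sum of red blood cell markers, at 273, 62.0 and 47.4 CPM in the controls and 74.1, 232 and 135 CPM in miDrp1KO, and of blood endothelium markers, at 314, 177 and 247 CPM and at 175, 277 and 202 CPM. The adipocyte sum was lower in all miDrp1KO libraries than in all controls, with miDrp1KO F at 181 CPM close to control B at 186 CPM. Myofibre markers were at 251670 to 304919 CPM in the controls and 231659, 138234 and 117131 CPM in miDrp1KO A, E and F, while fibroblast markers were at 1169 to 1728 and 1381 to 2043 CPM. The part of these shifts in the member values was not tested.

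**Figure D5:**
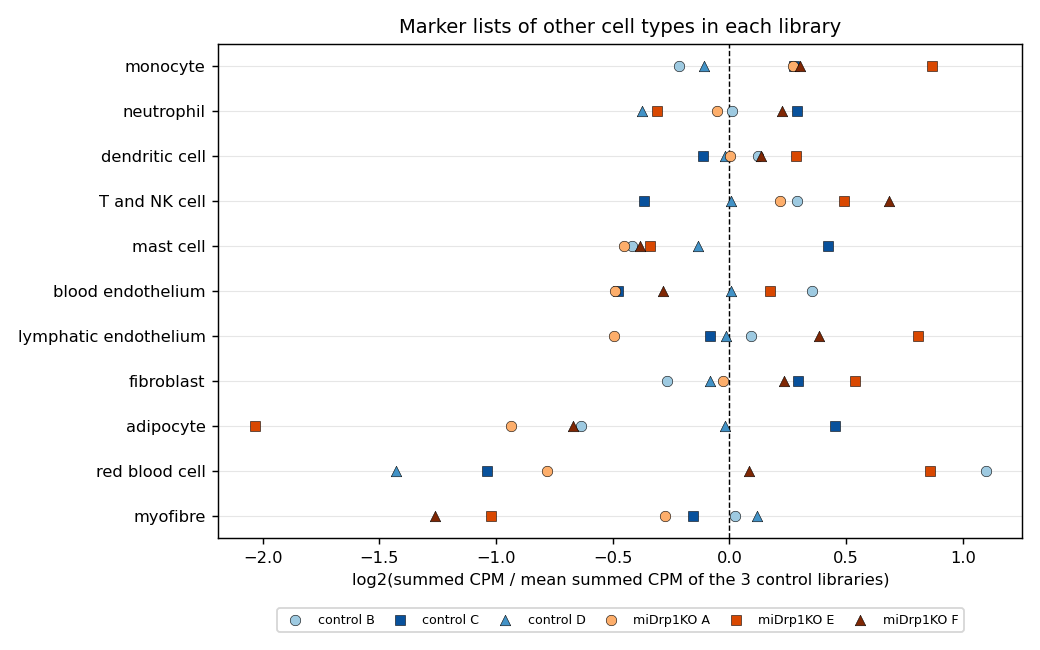
Summed CPM of marker lists of other cell types in each library as the log2 ratio to the mean of the 3 controls, with 1 point per library. Control C is the highest library for adipocyte (395 CPM) and mast cell markers (43.5 CPM), and the miDrp1KO libraries lie below all controls for adipocyte markers.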

How the data were processed

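Total RNA of quadriceps muscle from 3 control and 3 miDrp1KO mice was depleted of ribosomal RNA, prepared with a stranded kit and sequenced in pools, and which library was in which pool is not given in the sources used here. The authors deposited raw counts per gene, without normalization, made with Rsubread on GRCm38 after a check with FastQC. The strand setting and the treatment of reads shared by near-identical or overlapping genes are not given, so *Lyz2*, *Fcgr2b*, *Fcgr3* and members that overlap another RefSeq gene (*Laptm5*, *Csf1r*, *Adgre1*, *Ctss*, *Cx3cr1*, *Cd163*, *Mrc1*, *Folr2* and *Cd74*, and again *Fcgr3*) are uncertain. Libraries were grouped by the genotype label, and the titles number 6 mice. The edgeR p-values set the difference between the groups against the spread between libraries of the same group, with 3 libraries in each.

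The main test was the robust quasi-likelihood test of edgeR 4.0.16 (R 4.3.3) after TMM scaling and filterByExpr on genotype, with p adjusted by Benjamini-Hochberg across 16483 genes and a threshold of 0.05, and the fit was tested on simulated data. The SE of a log2 fold change was derived from this test, as the absolute log2 fold change divided by the square root of the F statistic. Single members were also compared by an exact two-sided permutation test of mean CPM. Alternatives were DESeq2 1.42.0 (the authors used 1.30.0), voom in limma 3.58.1, other scalings and filters, a ribosomal RNA covariate, and leaving out each library. Exon lengths and coordinates came from GENCODE vM21 and promoter windows from RefSeq. The members and all lists were chosen with earlier results of these data known. All 34 members, *Dnm1l* and, per pathway list, up to 4 genes with the lowest unadjusted p under 0.05 were named, except for some that are not reported here. Marker lists were named by sums, and other genes were chosen after their values were seen (among them *Lyz1*, *Ccr2*, *Ly6c2* and *Ly6g*). Symbols of 2 list genes matched no listed gene.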

Additional observations from a re-analysis of the deposited data

How the results depend on the processing

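The count of members called was 0 under all 15 alternatives, and 24 of 34 members kept the sign of their fold change in all that gave them a value. The median log2 fold change of the members was 0.36 to 0.58 without leaving out a library, and 0.21 to 0.66 with 1 left out. Over all genes 2 were called, against 82 with DESeq2, 1 with limma voom, 8 without a filter on low counts, 1 with the ribosomal RNA covariate, 45 with library totals and no TMM factors (an alternative chosen after seeing the data), and 1 to 7 with 1 library left out. Members at an unadjusted p under 0.05 were all higher in miDrp1KO and numbered 11 with library totals (8.32% of all genes higher) and 3 to 21 with 1 library left out. They numbered 6, 5 and 6 without miDrp1KO A, E and F (8.55, 3.27 and 3.60% of all genes higher). Members with all miDrp1KO libraries above all controls numbered 11 with upper quartile scaling (10.9% of all genes above) and 5 to 27 with 1 library left out (11.6 to 20.2% above). Without miDrp1KO A they numbered 7 of 34, near the 20.2% of all genes above. They numbered 5 of 34 without control B and without control D, near the 15.3 and 12.3% of all genes above. The scaling moved the median of all genes from 0.02 to 0.11 (upper quartile) and 0.26 (library totals), so that the members' median lay 0.36 and 0.32 above it, against 0.36 with TMM. With limma voom the reversed log2 fold changes were 0.15 for *Adgre1*, 0.0097 for *Cd163*, 0.050 for *Cd74*, 0.13 for *Fcer1g*, 0.34 for *Fcgr1*, 0.19 for *H2-Eb1*, 0.076 for *Laptm5* and 0.014 for *Mrc1*. With upper quartile scaling the reversed log2 fold changes were 0.042 for *Adgre1*, 0.073 for *Cd163*, 0.029 for *Fcer1g*, 0.069 for *H2-Eb1*, 0.055 for *Laptm5* and 0.078 for *Mrc1*. With at least 10 counts in every library the reversed log2 fold changes were 0.028 for *Cd163*, 0.021 for *H2-Eb1*, 0.0098 for *Laptm5* and 0.031 for *Mrc1*. With the ribosomal RNA covariate the reversed log2 fold changes were 0.072 for *Adgre1* and 0.065 for *Laptm5*. Without ribosomal RNA genes and *Lars2* the reversed log2 fold changes were 0.024 for *Cd163*, 0.014 for *H2-Eb1*, 0.0038 for *Laptm5* and 0.026 for *Mrc1*. With library totals they were 0.18 for *Adgre1*, 0.17 for *Cd163*, 0.084 for *Cd74*, 0.15 for *Fcer1g*, 0.045 for *Fcgr1*, 0.16 for *H2-Eb1*, 0.20 for *Laptm5* and 0.20 for *Mrc1*. With 1 library left out the ranges were -0.29 to 0.38 for *Adgre1*, -0.40 to 0.52 for *Aif1*, -0.22 to 0.32 for *Cd163*, -0.36 to 0.52 for *Cd74*, -0.26 to 0.32 for *Fcer1g*, -0.56 to 0.33 for *Fcgr1*, -0.14 to 0.66 for *H2-Ab1*, -0.26 to 0.55 for *H2-Eb1*, -0.18 to 0.23 for *Laptm5* and -0.15 to 0.24 for *Mrc1*. The cause of these changes was not tested. No paired analysis was possible because controls and miDrp1KO mice share no replicate letter. With 3 libraries a group an exact test cannot go below p = 0.1, and *Aif1*, *Cx3cr1* and *Trem2* had under 10 counts in at least 1 library.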
